A study of Mus musculus with 23 samples.

Results

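The 10 genes described here mark successive stages of the oligodendrocyte lineage in mouse hippocampus. They were taken from the count table by symbol (Pdgfra, Cspg4, Ptprz1, Gpr17, Enpp6, Bcas1, Sox10, Olig1, Olig2 and Myrf). All 10 were found among the 55335 genes of the table, and all 10 passed the filter on low counts in every comparison. The 23 libraries came from whole hippocampus of 3xTg mice, a model of Alzheimer's disease (AD), and of wild-type (WT) mice. The 3xTg line carries human APP and tau transgenes with disease mutations, expressed from a Thy1 element that is active in neurons. WT mice were of the C57BL/6J x 129S1 hybrid background. Unoperated mice were 8 months old (WT-8M, n = 4, and 3xTg-8M, n = 4). Mice of 10 months had been infused for 28 days into the lateral ventricles with vehicle or with SCDi (ab142089), an inhibitor of the desaturase SCD, which introduces a double bond into saturated fatty acids. The SCDi was given at 80 µM, and all pumps held 0.8% DMSO in artificial cerebrospinal fluid (WT-D, n = 4; 3xTg-D, n = 4; WT-S, n = 3; 3xTg-S, n = 4). The study's methods give the mice as female. The strains therefore differ by several alleles at once and by their breeding, and the 8-month and 10-month mice differ by age and by surgery.

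Oligodendrocyte precursor cells persist in the adult brain, where they divide and give rise to oligodendrocytes that wrap axons in myelin. A precursor that commits to this fate lowers its growth factor receptors, passes through a short intermediate stage, and then turns on the genes of myelin. Pdgfra, Cspg4 and Ptprz1 mark the precursor, Gpr17, Enpp6 and Bcas1 mark the committed and newly formed cell, and Sox10, Olig1, Olig2 and Myrf encode transcription factors that drive the lineage. Some of the markers are shared with other cells of the tissue. Pericytes express Cspg4, fibroblasts of the meninges and vessels express Pdgfra, and astrocytes express Ptprz1.

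A pair of promoters is shown because their genes were the extremes of the set, Enpp6 with the widest and Pdgfra with the narrowest spread between libraries. Each sequence is the 250 bases before the RefSeq start site on the plus strand of GRCm38.p6, and neither window overlapped a gene of the Gencode M21 annotation. Capitals mark AACAATG, a form of the motif bound by SOX factors, which was searched on both strands with the E-box CAGCTG, a form bound by basic helix-loop-helix factors such as OLIG2. Both motifs were picked after the sequences had been read.
Enpp6, chr8:46986637-46986886: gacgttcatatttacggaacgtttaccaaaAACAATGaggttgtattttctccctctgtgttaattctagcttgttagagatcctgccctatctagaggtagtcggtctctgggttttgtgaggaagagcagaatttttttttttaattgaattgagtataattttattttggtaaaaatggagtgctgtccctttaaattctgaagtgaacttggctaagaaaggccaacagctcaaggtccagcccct
Pdgfra, chr5:75152001-75152250: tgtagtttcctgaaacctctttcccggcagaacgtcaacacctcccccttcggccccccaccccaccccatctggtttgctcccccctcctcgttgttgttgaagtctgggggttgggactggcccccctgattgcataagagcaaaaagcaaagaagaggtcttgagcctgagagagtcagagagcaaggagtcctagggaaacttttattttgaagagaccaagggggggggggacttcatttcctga
The Enpp6 window held 1 copy of AACAATG, which began 220 bases before the start site. The Pdgfra window held neither motif. RefSeq promoters were at hand for 5 of the 10 genes, and of these Enpp6 and Olig2 held AACAATG and none held CAGCTG. Over all 32817 promoters of the same length, 3.29% held AACAATG and 13% held CAGCTG. The Enpp6 window was 38.4% G and C, a share below that of most promoters (9.06% were lower), whereas the Pdgfra window was 54.4% G and C, close to the median of 52.4%. A match of letters is not evidence of binding.

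In the GRCm38 build, Pdgfra (ENSMUSG00000029231.15) lies at chr5:75152292-75198215, Enpp6 (ENSMUSG00000038173.15) at chr8:46986887-47096762, Bcas1 (ENSMUSG00000013523.13) at chr2:170346991-170427845 and Sox10 (ENSMUSG00000033006.10) at chr15:79154908-79165240. The counts cover the exons of each gene as a whole, so that isoforms are not told apart.

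All 10 genes were detected in every library, with counts from 62 (Enpp6) to 15288 (Ptprz1). The reads counted in genes ranged from 12802267 to 36686413 per library at 8 months and from 12992547 to 17575615 at 10 months. Intervals and spreads from sequenced PCR copies cover counting error and the differences between libraries only. Levels are given as CPM, the counts of a gene relative to a fixed total of reads, after scaling by the trimmed mean of M values (TMM). For comparisons between genes only, the CPM were divided by the length of the exons in kilobases (RPKM). That length joins all annotated exons of a gene. For Ptprz1 it was 14245 bases, against 8068 in its longest transcript, and for Olig1 it was 2162 by either measure. The order of genes below therefore depends on the length used, and it was not recomputed with transcript lengths. On the RPKM scale Bcas1 had the highest mean level, 42.8 ± 7.30 (SD, n = 23), followed by Olig1 at 33.4 ± 4.58 and Ptprz1 at 24.5 ± 2.31. Bcas1 exceeded Olig1 in 23 of 23 libraries, and Olig1 exceeded Ptprz1 in 21. Sox10 (10.3 ± 1.5 RPKM), Olig2 (8.39 ± 1.09), Gpr17 (8.23 ± 1.25) and Pdgfra (7.33 ± 0.470) followed. Olig2 exceeded Gpr17, and Gpr17 exceeded Pdgfra, in 15 of 23 libraries each, so that these neighbours were not ordered beyond their spread. Myrf lay below Pdgfra in 23 of 23 libraries, at 5.05 ± 0.702 RPKM. Cspg4 (1.69 ± 0.209 RPKM) and Enpp6 (1.55 ± 0.333 RPKM) were the lowest, and Cspg4 exceeded Enpp6 in 16 of 23 libraries. Bcas1 and Enpp6, both listed as markers of new oligodendrocytes, thus stood at opposite ends of this order. Bcas1 is also found in mature oligodendrocytes, so that the order of levels was not read as an order of stages.

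**Figure D1:**
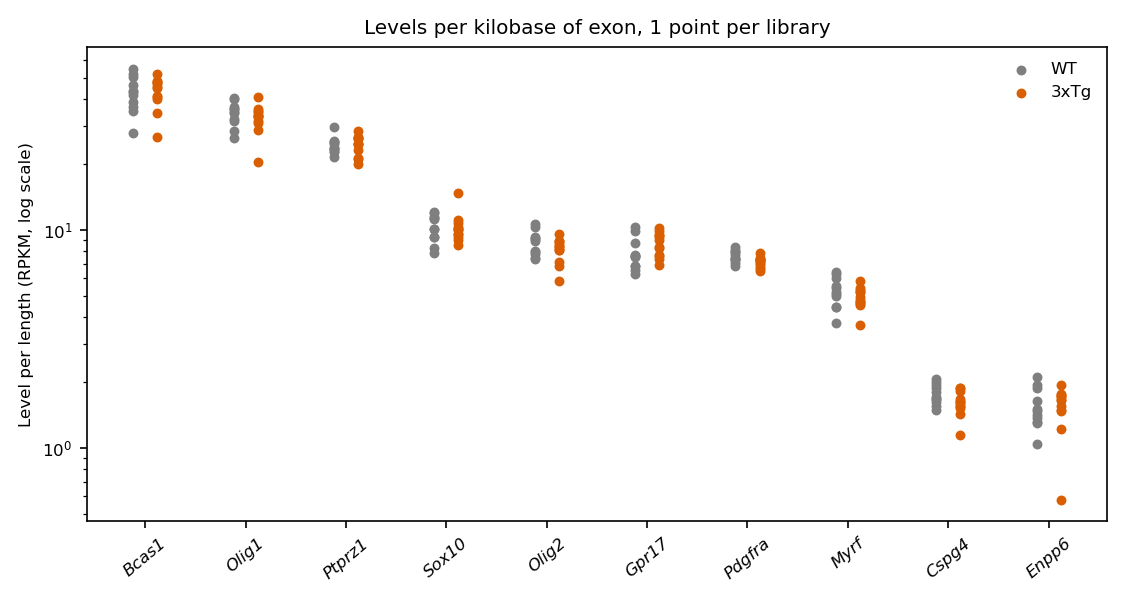
Level per kilobase of exon (RPKM, log axis) of the 10 genes in each of the 23 libraries, ordered by their mean, with WT libraries in grey and 3xTg libraries in orange. The levels run from about 1.55 for Enpp6 to 42.8 for Bcas1 on average, and the points of the 2 strains overlap for every gene.

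The genes differed in how steady they were. The level of Pdgfra in the highest library was 1.29 times that in the lowest, the smallest such ratio of the 10, and that of Ptprz1 was 1.48 times. The ratio was 1.65 to 2.05 for the other genes except Enpp6, for which it was 3.66. The SD of log2 CPM within groups was 0.0856 for Pdgfra and 0.365 for Enpp6. Means of the 6 groups differed at most by 1.11 times for Pdgfra and by 1.44 times for Enpp6. The wide spread of Enpp6 rested on 1 library, 3xTg-D replicate 3. Without it, the ratio of Enpp6 was 2.04 and its SD was 0.201, next to 1.99 and 0.244 for Bcas1, while Pdgfra kept a ratio of 1.29 and stayed the steadiest of the 10.

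One library stood apart in these genes. In 3xTg-D replicate 3, Enpp6 (3.71 CPM), Bcas1 (101 CPM), Olig1 (44.0 CPM) and Olig2 (14.8 CPM) had the lowest level of all 23 libraries, whereas Sox10 (45.1 CPM) had the highest. The summed level of 20 genes of myelin was lowest of the 23 libraries in WT-8M replicate 1, at 3700 CPM. In 3xTg-D replicate 3 it was 4290 CPM, against 5720 to 6780 CPM in the other 3xTg-D libraries. Opalin, a membrane protein of myelinating oligodendrocytes, was at 3.41 CPM there, against 17.0 to 23.7 CPM in the other 3. Ptprz1 (305 CPM) and Gpr17 (36.0 CPM) were also the lowest of their group there, whereas Pdgfra (72.0 CPM), Cspg4 (19.4 CPM) and Myrf (44.5 CPM) lay within the range of the other 3xTg-D libraries. Of the precursor markers, Pdgfra and Cspg4 were thus not low in this animal. The summed level of 16 other precursor genes was low in it, at 936 CPM against 1030 to 1060 CPM in the other 3xTg-D libraries. That sum was the lowest of the 23 libraries. Sox10 stood on the opposite side of its group from Olig1 and Olig2. The summed levels of astrocyte markers (5830 CPM) and of fibroblast markers (139 CPM) in this library were within the range of the rest of its group. Those of pericytes (211 CPM, against 220 to 229) and of microglia (360 CPM, against 459 to 563) were below it. The mean centred log2 level of the astrocyte markers was the highest of the 23 libraries there (0.224), although their sum was not. Markers of thalamus (210 CPM, against 163 to 172) and of choroid plexus (135 CPM, against 46.1 to 125) were above the rest of the group, and those of neurons (10500 CPM, against 10800 to 11400) and of hippocampal fields (1030 CPM, against 1090 to 1150) were below it. Their part in these values was not tested. Estimates that leaving out this library moved by much are given both ways where they were recomputed.

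The first comparison asked how the strains differ at 8 months without treatment. None of the 10 genes was called at an adjusted p under 0.05 by edgeR's quasi-likelihood test or by DESeq2, where edgeR called 2.58% of the 15483 genes tested. One of the 10 (Pdgfra) had an unadjusted p under 0.05, against 17.4% of all genes. Bulk RNA cannot tell fewer cells of a type from less RNA per cell, here and in all that follows. Of the 10 fold changes, 8 were below 0, with a median log2 fold change of -0.11 over the 10 genes, beside 0.006 over all genes.

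Pdgfra, the receptor through which PDGF-A keeps precursors dividing, was at 79.4, 80.9, 74.1 and 74.4 CPM in WT-8M and at 67.4, 72.9, 70.6 and 66.1 CPM in 3xTg-8M. Every 3xTg-8M library lay below every WT-8M library. Groups this small can separate by chance, and the share of all genes that did so was not counted, here and in all that follows. The log2 fold change was -0.15 (SE 0.06, 95% interval -0.29 to -0.02), with an adjusted p of 0.226 by edgeR. Cspg4, which encodes the NG2 proteoglycan, ranged from 18.5 to 24.8 CPM in WT-8M and from 13.7 to 22.5 CPM in 3xTg-8M (log2 fold change -0.18, interval -0.50 to 0.14). Ptprz1, a receptor phosphatase that binds pleiotrophin, was at 360 to 421 CPM and 301 to 378 CPM (-0.10, interval -0.28 to 0.08). All 3 precursor markers thus had negative point estimates, and the intervals of Cspg4 and Ptprz1 included 0. Of 16 other precursor genes, 6 estimates were above 0 and 10 below, with a median of -0.05. By edgeR 0 of these 16 were called, and 1 was higher and 3 lower at an unadjusted p under 0.05. Marker lists of cells that share the 3 markers had 0 called members by edgeR, namely 0 of 9 pericyte, 0 of 9 fibroblast and 0 of 10 astrocyte genes. At an unadjusted p under 0.05 there were 0, 0 and 1. Their summed levels overlapped between the strains, at 205 to 252 against 201 to 257 CPM for pericytes and 112 to 207 against 86.0 to 213 CPM for fibroblasts. For astrocytes the sums were 5740 to 6160 against 5310 to 6380 CPM. Their part in the result was not tested.

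The genes of committed and newly formed cells did not separate the strains at 8 months. Gpr17, a receptor present for a short time in committed precursors, had a mean of 45.0 ± 8.82 CPM in WT-8M and 47.5 ± 6.39 CPM in 3xTg-8M (log2 fold change 0.09, interval -0.22 to 0.39). Enpp6, a choline phosphodiesterase of newly forming oligodendrocytes, was at 9.12, 9.41, 12.5 and 13.6 CPM in WT-8M and at 10.6, 9.62, 9.91 and 7.80 CPM in 3xTg-8M (-0.22, interval -0.56 to 0.11). Bcas1, found in new and in mature oligodendrocytes, had means of 163 ± 47.4 and 155 ± 20.4 CPM (-0.07, interval -0.47 to 0.33). Among the factors, Sox10 (-0.16), Myrf (-0.13), Olig2 (-0.03) and Olig1 (0.03) had adjusted p-values from 0.546 to 0.935. The intervals of these 4 factors lay between -0.44 and 0.32.

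The WT-8M libraries varied more in some of these genes than the strains differed. Bcas1 was at 104, 146, 195 and 208 CPM in the 4 WT-8M libraries, and Olig1 was at 57.2, 61.5, 86.5 and 87.5 CPM. The libraries that were low in one were low in the other. Without WT-8M replicate 1, the lowest in both, the log2 fold change of Bcas1 was -0.24 in place of -0.07, with an adjusted p of 0.452.

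**Figure D2:**
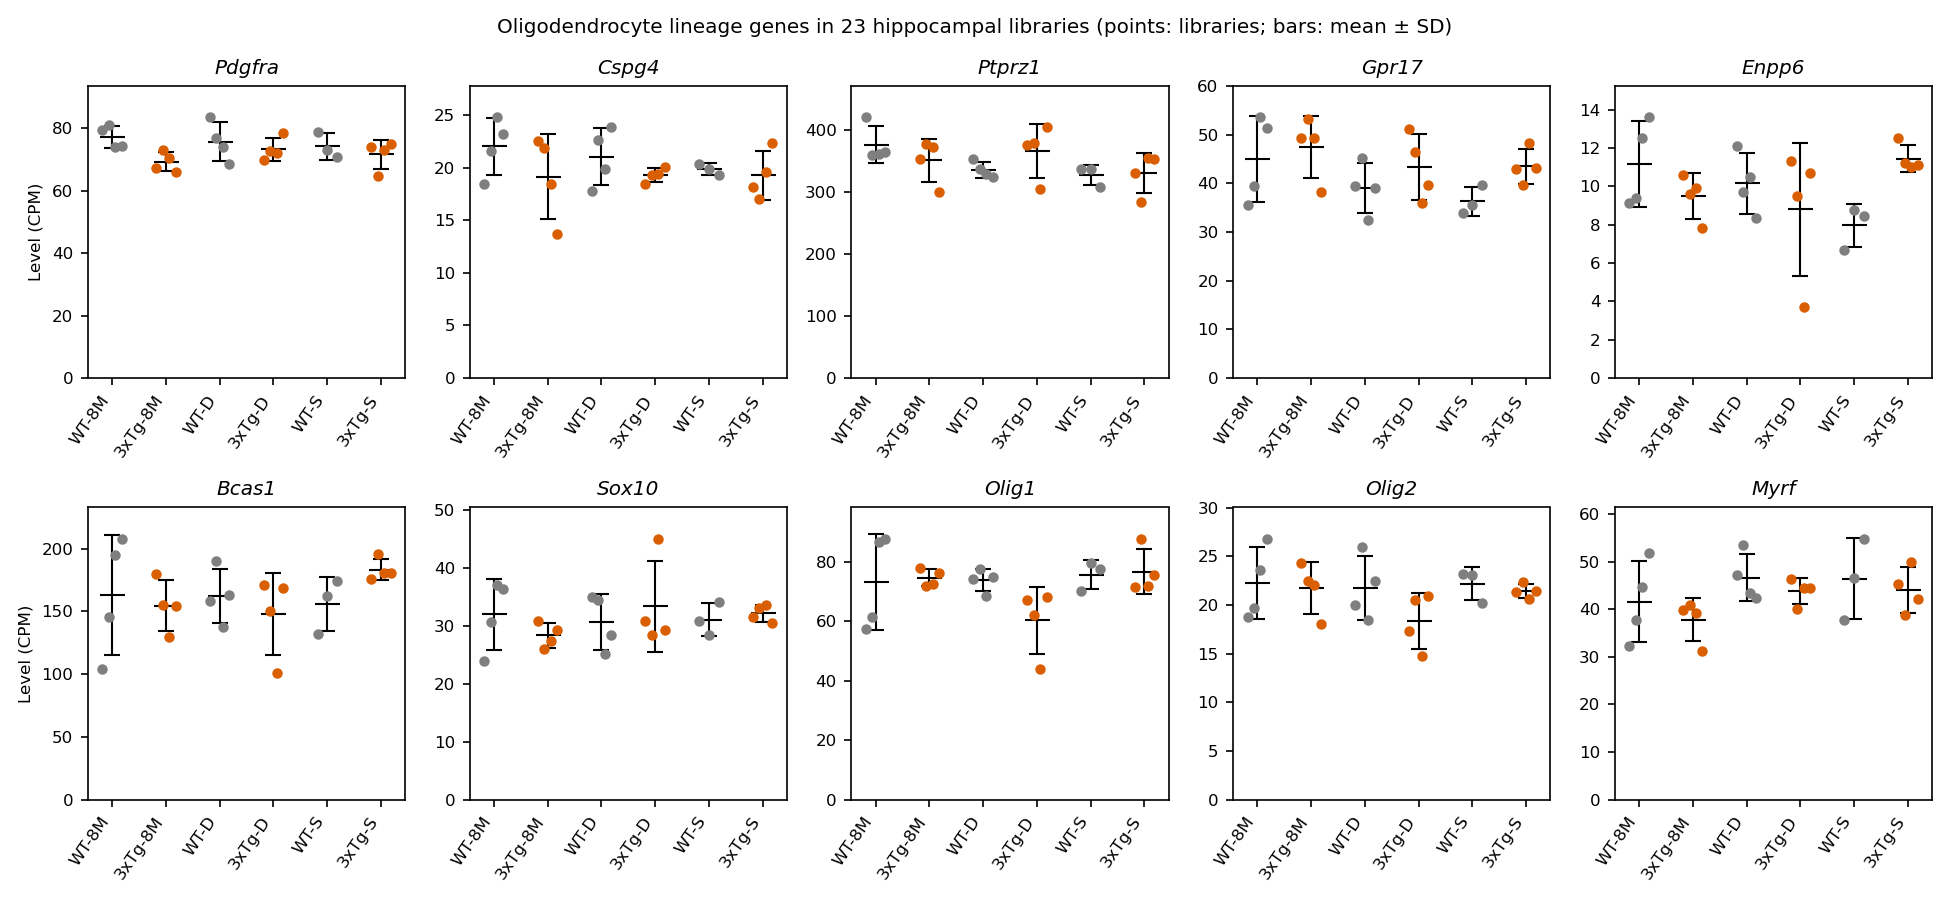
Level (CPM, linear axes from 0) of each of the 10 genes in the 6 groups, with 1 point per library (WT grey, 3xTg orange) and the mean ± SD as bars. Enpp6, Bcas1, Olig1 and Olig2 each have their lowest point in 3xTg-D, and the 4 points of 3xTg-S for Enpp6 (11 to 12.5 CPM) lie above the 3 of WT-S (6.66 to 8.77 CPM).

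The second comparison asked how the strains differ at 10 months after the vehicle. Neither edgeR nor DESeq2 called any of the 10 genes, where edgeR called 1.39% of 15528 genes. One (Olig1) had an unadjusted p under 0.05, against 13.1% of all genes. Olig1, a helix-loop-helix factor of the lineage, was at 74.3, 77.5, 68.5 and 74.9 CPM in WT-D and at 67.1, 61.9, 44.0 and 68.1 CPM in 3xTg-D. All 4 libraries of 3xTg-D lay below those of WT-D, by a narrow margin for 2 of them. The log2 fold change was -0.30 (SE 0.11, interval -0.54 to -0.06, adjusted p = 0.271 by edgeR). Without 3xTg-D replicate 3 the estimate moved to -0.16 (SE 0.06, adjusted p = 0.317). Olig2, which lies close to Olig1 on chromosome 16 (91225457 to 91228677 and 91269772 to 91271933 in GRCm38), had the same sign, at -0.25 (interval -0.53 to 0.03), and -0.14 without that library.

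The other genes had smaller estimates or wider intervals in the vehicle groups. Enpp6 was at 12.1, 9.68, 10.5 and 8.33 CPM in WT-D and at 11.3, 9.50, 3.71 and 10.7 CPM in 3xTg-D. In 3xTg-D, 3 of the 4 libraries lay within the range of WT-D, and the estimate turned from -0.23 to 0.05 without replicate 3. Sox10 likewise turned from 0.12 to -0.05, and Bcas1 from -0.14 to 0.02. Ptprz1 was at 324 to 354 CPM in WT-D and at 377, 379, 305 and 406 CPM in 3xTg-D. Its estimate of 0.12 (adjusted p = 0.560 by edgeR) became 0.21 (SE 0.05, adjusted p = 0.0899) when replicate 3 was left out, since the other 3 libraries all lay above WT-D. Pdgfra (-0.05), Cspg4 (-0.13), Gpr17 (0.14) and Myrf (-0.10) kept their sign without that library, at -0.03, -0.12, 0.24 and -0.09. Of the astrocyte markers, 0 of 10 were called in this comparison by edgeR and 2 were higher at an unadjusted p under 0.05, and the part of astrocytes in the Ptprz1 values was not tested.

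The third comparison asked how the strains differ after the SCDi. Again neither tool called any of the 10 genes, where edgeR called 1.32% of 15664 genes. Of the 10, 3 were higher in 3xTg-S at an unadjusted p under 0.05, against 10.6% of all genes in either direction. They were Enpp6, Gpr17 and Bcas1, the 3 markers of committed and newly formed cells. Of 12 other listed genes of such cells, 10 estimates were above 0 and 2 below, with a median of 0.06. In that list 2 were higher and 1 lower at an unadjusted p under 0.05, and the only call by edgeR was 1 lower gene. Enpp6 was at 6.66, 8.77 and 8.44 CPM in WT-S and at 12.5, 11.2, 11 and 11.1 CPM in 3xTg-S. The groups did not overlap, and the 4 libraries of 3xTg-S were close to each other. The share of all genes without overlap in this comparison was not counted. The level in 3xTg-S was 1.44 times that in WT-S (log2 fold change 0.52, SE 0.13, interval 0.25 to 0.80), with an adjusted p of 0.0824 by edgeR and 0.0660 by DESeq2, both above the threshold. By edgeR this was the smallest adjusted p of the 10 genes over the 9 comparisons. In the same comparison, 3 of 9 microglia markers were called higher in 3xTg-S, with summed levels of 377 to 403 CPM in WT-S and 446 to 557 CPM in 3xTg-S, and their part in the result was not tested.

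Gpr17 was at 33.9, 35.5 and 39.7 CPM in WT-S and at 42.9, 39.7, 48.3 and 43.2 CPM in 3xTg-S. The lowest 3xTg-S library was almost level with the highest of WT-S. The log2 fold change was 0.26 (SE 0.08, adjusted p = 0.230 by edgeR). Bcas1 was at 132, 162 and 174 CPM in WT-S and at 176, 196, 181 and 181 CPM in 3xTg-S, and the log2 fold change was estimated at 0.23 (SE 0.09, adjusted p = 0.322 by edgeR). Again the groups touched without overlapping. WT-S replicate 1 was the lowest of its group for Enpp6, Gpr17 and Bcas1 alike. When it was left out, their log2 fold changes were 0.41, 0.21 and 0.13, with adjusted p-values of 0.180, 0.418 and 0.558 by edgeR. Of the 10 genes, 2 then had an unadjusted p under 0.05. The factors and the precursor markers stayed near 0, from -0.08 for Myrf to 0.05 for Sox10, and their adjusted p-values were 0.876 or more. With 3 WT-S libraries, the intervals of these 7 genes lay between -0.26 and 0.22 on the log2 scale for all but Myrf (-0.33 to 0.18).

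The fourth comparison set 3xTg-S against 3xTg-D and asked what the SCDi changed in 3xTg mice. None of the 10 genes and 0% of all 15530 genes were called by edgeR, and DESeq2 called none of the 10 and 15 genes in all. Of the 10, 3 had higher levels under the inhibitor by an unadjusted p under 0.05, against 11.2% of all genes. Olig1 rested on 67.1, 61.9, 44.0 and 68.1 CPM in 3xTg-D and 71.6, 87.7, 71.7 and 75.4 CPM in 3xTg-S, without overlap (log2 fold change 0.35, SE 0.12, adjusted p = 0.378 by edgeR). Bcas1 was at 171, 150, 101 and 169 CPM in 3xTg-D, all below 3xTg-S (0.32, SE 0.13, adjusted p = 0.412). Olig2 had an estimate of 0.23 (adjusted p = 0.446). Each of the 3 was lower in 3xTg-D replicate 3 than in any other library, and without it the estimates were 0.22, 0.17 and 0.13. Enpp6 moved most, from 0.40 (interval -0.13 to 0.93) to 0.13 (interval -0.09 to 0.35). Sox10 turned from -0.06 to 0.13, and Ptprz1 went from -0.14 to -0.22 (adjusted p = 0.502). The 3xTg-D libraries served in this comparison and in that of the vehicle groups, so that the opposite signs of Olig1 and Olig2 in the pair of comparisons are not independent.

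In WT mice the SCDi was compared with vehicle in the same way. None of the 10 and 0% of 15724 genes were called by edgeR for WT-S against WT-D, and DESeq2 called none of the 10 and 0 genes in all. One of the 10 (Enpp6) had an unadjusted p under 0.05, against 3.42% of all genes. Enpp6 was lower in WT-S, at a mean of 7.96 ± 1.13 CPM against 10.2 ± 1.58 CPM in WT-D, and the groups overlapped (log2 fold change -0.35, interval -0.69 to -0.02, adjusted p = 0.981 by edgeR). The other 9 lay between -0.10 (Gpr17) and 0.04 (Olig1). For 3xTg-S against WT-D, edgeR called none of the 10 and 2.29% of 15567 genes, and DESeq2 called none of the 10. One of the 10 (Bcas1, log2 fold change 0.18, adjusted p = 0.288) had an unadjusted p under 0.05, against 16.9% of all genes. The WT-S estimates share their libraries with those of 3xTg-S against WT-S, where Enpp6 had the opposite sign.

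**Figure D3:**
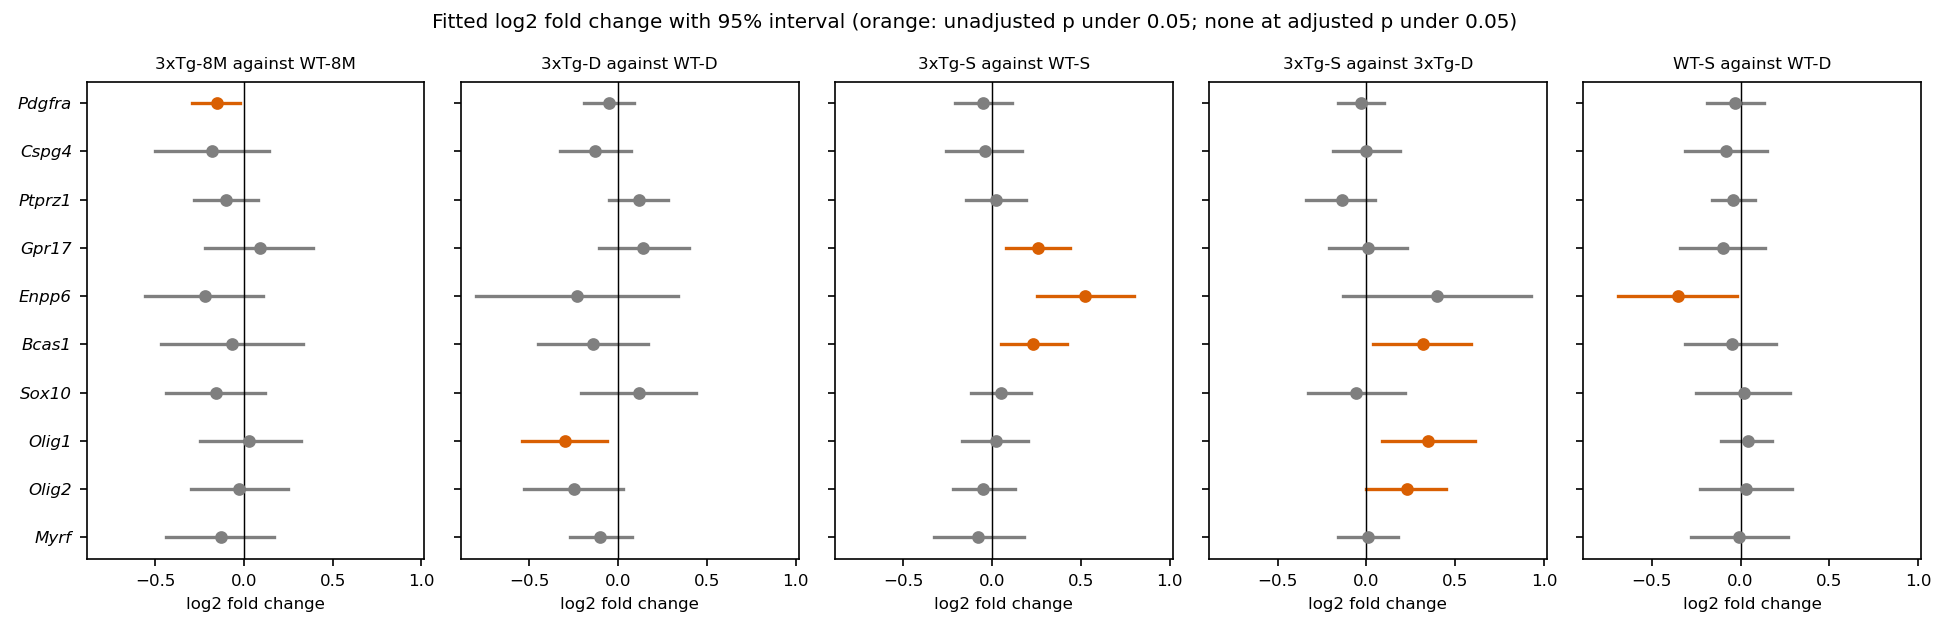
Fitted log2 fold changes (horizontal axis) with 95% intervals for the 10 genes in 5 comparisons between groups, in orange where the unadjusted p was under 0.05. Enpp6 after the SCDi lies farthest from 0 (0.52, interval 0.25 to 0.80), and none of the points passed the adjusted threshold.

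The 15 libraries of 10 months were also fitted together, to test the effects of strain and treatment over both levels of the other and their interaction. Over both treatments, edgeR called none of the 10 genes and 6.32% of 15864 genes for strain. One of the 10 (Gpr17) had an unadjusted p under 0.05, against 19.6% of all genes. Gpr17 had a mean of 43.5 ± 5.03 CPM in 8 libraries of 3xTg and 37.9 ± 4.31 CPM in 7 of WT (log2 fold change 0.20, SE 0.08, adjusted p = 0.152). Without 3xTg-D replicate 3 this was 0.24 (adjusted p = 0.0547), and Enpp6 went from 0.11 to 0.27 (adjusted p = 0.152). Over both strains, edgeR called none of the 10 and 0% of genes for treatment. One of the 10 (Olig1, 0.20, SE 0.08, adjusted p = 0.296) had an unadjusted p under 0.05, against 13.8% of all genes, and its estimate was 0.13 (adjusted p = 0.366) without 3xTg-D replicate 3. DESeq2 called none of the 10 in either test, and 1284 and 43 genes in all.

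The interaction asks whether the SCDi acted differently in the strains. None of the 10 and 0% of 16262 genes were called by edgeR, and DESeq2 called none of the 10 and 0 genes in all. One of the 10 (Enpp6) had an unadjusted p under 0.05 by edgeR, against 2.32% of all genes. Its mean was 8.79 CPM in 3xTg-D and 11.4 CPM in 3xTg-S, and 10.2 CPM in WT-D and 7.96 CPM in WT-S. The interaction estimate was 0.75 on the log2 scale (SE 0.33, interval 0.05 to 1.45, unadjusted p = 0.0374, adjusted p = 1 by edgeR). Without 3xTg-D replicate 3 it was 0.48 (interval 0.10 to 0.87, adjusted p = 1). Of the 10 interaction estimates 8 were above 0, with Bcas1 (0.37) and Olig1 (0.32) next to Enpp6, and they share the same 15 libraries. These were 0.22 and 0.19 without 3xTg-D replicate 3.

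One further gene of the lineage was called at 10 months in every comparison of the strains. In lists of 12 other genes of committed and new cells and of 22 other regulators, Zfp488, a zinc finger repressor that acts with OLIG2, was lower in 3xTg at 10 months. It was at 6.05, 4.87, 4.66 and 4.65 CPM in WT-D and at 2.67, 2.82, 3.05 and 2.69 CPM in 3xTg-D. In WT-S it was at 4.96, 5.68 and 5.04 CPM, and in 3xTg-S at 3.22, 2.34, 2.5 and 2.16 CPM. No library of 3xTg at 10 months reached the lowest WT library, and 3xTg-D replicate 3 lay with its group. By edgeR the log2 fold change was -0.85 (SE 0.14, adjusted p = 0.0110) after vehicle and -1.03 (SE 0.18, adjusted p = 0.0146) after the SCDi. Over both treatments the level in 3xTg was 0.525 times that in WT (log2 fold change -0.93, SE 0.11, adjusted p = 1.28e-05). The SCDi itself gave -0.13 in 3xTg and 0.04 in WT, with adjusted p-values of 0.784 and 0.993. At 8 months the estimate was -0.62 (interval -1.12 to -0.11, adjusted p = 0.202), with 2.86 to 5.48 CPM in WT-8M and 1.87 to 2.83 CPM in 3xTg-8M. Whether the strain difference changed with age was not tested, since the 2 ages differ also in surgery. The call after the SCDi was lost without WT-S replicate 2 (adjusted p = 0.0678) and without 3xTg-S replicate 4 (adjusted p = 0.0597), while those after vehicle and over both treatments held with each library left out. Counts of Zfp488 were 32 to 104 per library, so that its spread includes counting error.

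Of 20 listed genes of mature oligodendrocytes and myelin, 7 were called higher and 0 lower in 3xTg-S against WT-S, where 18 estimates were above 0 and the median log2 fold change was 0.31, beside 0.004 over all genes. Trf, the iron carrier transferrin, which oligodendrocytes make, rose most of the 7. It was at 194 to 237 CPM in WT-S and 355 to 403 CPM in 3xTg-S (log2 fold change 0.77, SE 0.08, adjusted p = 0.000205 by edgeR). Fa2h, which hydroxylates the fatty acids of myelin lipids, rose by 0.56 (adjusted p = 0.0275). In the list of 20, 0 were called at 8 months and 0 after vehicle by edgeR (2 and 1 had an unadjusted p under 0.05, beside 17.4% and 13.1% of all genes). Without 3xTg-D replicate 3, whose myelin sum was the lowest of its group, 1 was called higher after vehicle and 6 had an unadjusted p under 0.05. For the SCDi in 3xTg mice all 20 estimates were above 0 with a median of 0.29, and 0 were called, 9 having an unadjusted p under 0.05 (11.2% of all genes). Leaving out the same library lowered that median to 0.18, with 0 called and 9 at an unadjusted p under 0.05. Of the interaction estimates 19 of 20 were above 0 (median 0.29), with 0 called and 3 at an unadjusted p under 0.05 (2.32% of all genes), and the median was 0.18 without that library, so that a strain difference particular to the SCDi was not shown. The called genes of myelin in 3xTg-S against WT-S depended on single libraries. Leaving out WT-S replicate 3 took the count from 7 to 4, and leaving out 3xTg-S replicate 1, 2 or 4 took it to 3. For 3xTg-S against WT-D, which shares the 3xTg-S libraries, 7 of the 20 were called higher and 0 lower. All 20 estimates were above 0 there, with a median of 0.32, and the count called ran from 3 to 11 over 14 alternatives. For strain over both treatments 3 of the 20 were called higher, and 10 without 3xTg-D replicate 3. Microglia markers were also higher in 3xTg-S than in WT-S, with 3 of 9 called higher, 9 of 9 estimates above 0 and a median of 0.36. They were higher in 3xTg after vehicle too, with 2 of 9 called, 9 of 9 estimates above 0 and a median of 0.28. Without 3xTg-D replicate 3 the values after vehicle were 4 called and a median of 0.42. For the SCDi in 3xTg mice 0 of the 9 were called, with a median of 0.16, or -0.02 without that library. The part of microglia was not tested. Neuron markers had 0 of 10 called in any comparison with all libraries. Their summed levels overlapped after the SCDi, at 10800 to 12100 CPM in WT-S and 9730 to 11300 CPM in 3xTg-S. Of the 10 estimates, 9 were below 0 in 3xTg after vehicle (median -0.08), after the SCDi (-0.06) and for strain over both treatments (-0.07). At 8 months 6 were below 0 and 4 above. Leaving out 3xTg-D replicate 3, 1 of the 10 was called lower for strain over both treatments, with 0 estimates above 0. The part of neurons was not tested.

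**Figure D4:**
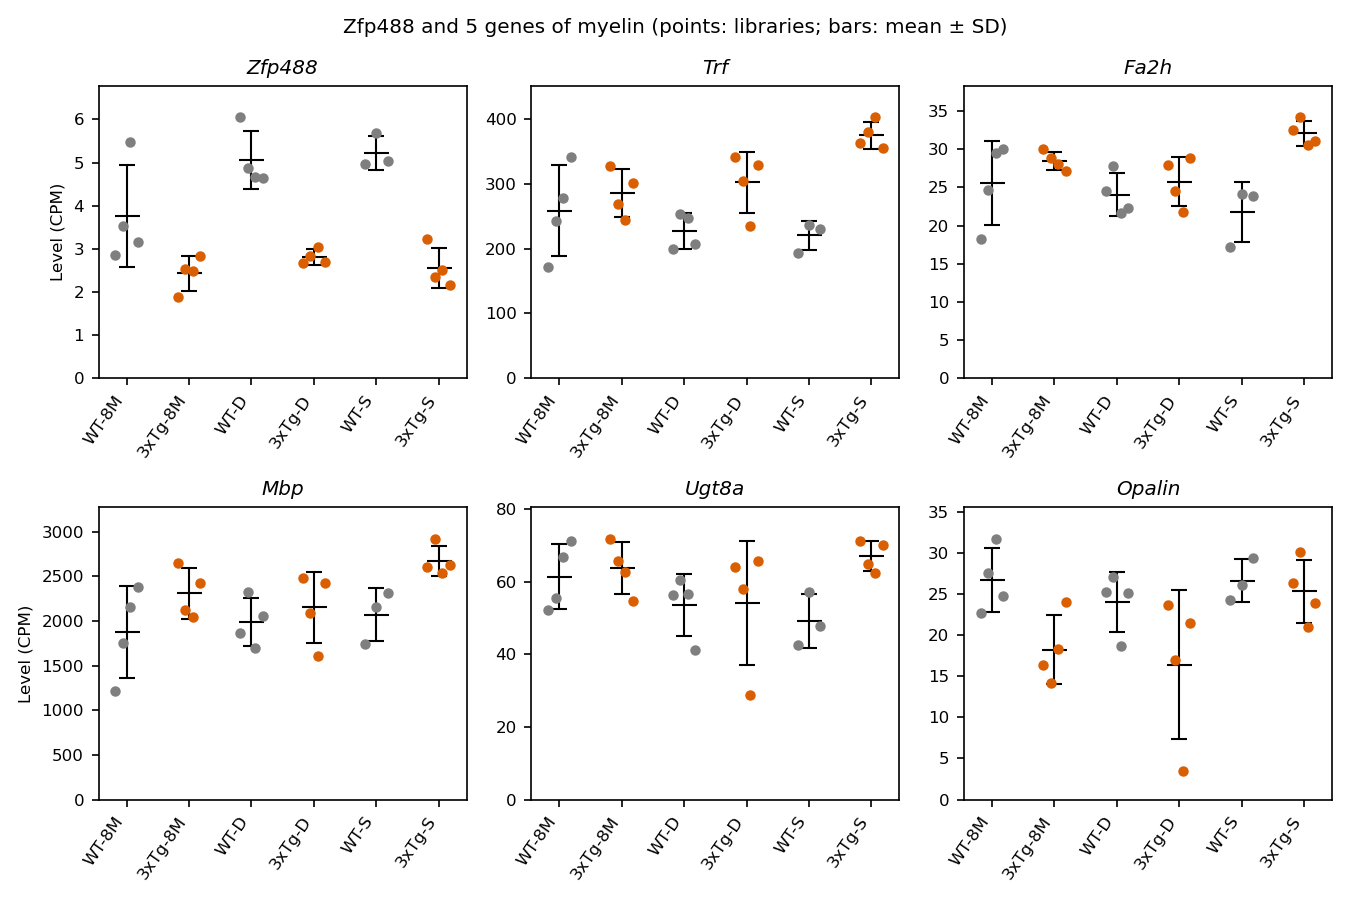
Level (CPM, linear axes from 0) of Zfp488 and of 5 genes of myelin in the 6 groups, with 1 point per library (WT grey, 3xTg orange) and the mean ± SD as bars. Zfp488 is lower in each 3xTg group of 10 months than in any WT library of that age, Trf is highest in 3xTg-S (355 to 403 CPM), and Opalin has a single low point of 3.41 CPM in 3xTg-D.

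The 10 genes did not vary as a block within groups. Pearson's r of log2 CPM, after each group's mean was removed, was computed over the 23 libraries as a description. The points share depth and composition of each library. The median r over 45 pairs was 0.32, with a range from -0.56 (Ptprz1 and Sox10) to 0.91 (Bcas1 and Olig1). Among Enpp6, Bcas1, Gpr17, Olig1 and Olig2, r ranged from 0.54 to 0.91. Pdgfra and Ptprz1 varied together (0.63), and Pdgfra had r of -0.28 with Bcas1 and -0.35 with Olig1. Cspg4, also a precursor marker, had r of only 0.02 with Pdgfra and varied more with Olig2 (0.60) and Gpr17 (0.55). Of the 3 precursor markers, Cspg4 thus did not follow the other two.

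Several of these correlations depended on 1 library. With all 23, r of Sox10 was 0.24 with Bcas1, 0.09 with Olig1 and -0.29 with Enpp6. Without 3xTg-D replicate 3, over 22 libraries, these became 0.81, 0.71 and 0.49. Enpp6 with Olig2 went from 0.54 to 0.33, Ptprz1 with Enpp6 from 0.52 to 0.10, and Ptprz1 with Olig1 from 0.04 to -0.46. The median of all pairs was then 0.46, and the lowest r was then that of Pdgfra and Olig1 (-0.49). The pair of Bcas1 and Olig1 stayed the highest, at 0.88.

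**Figure D5:**
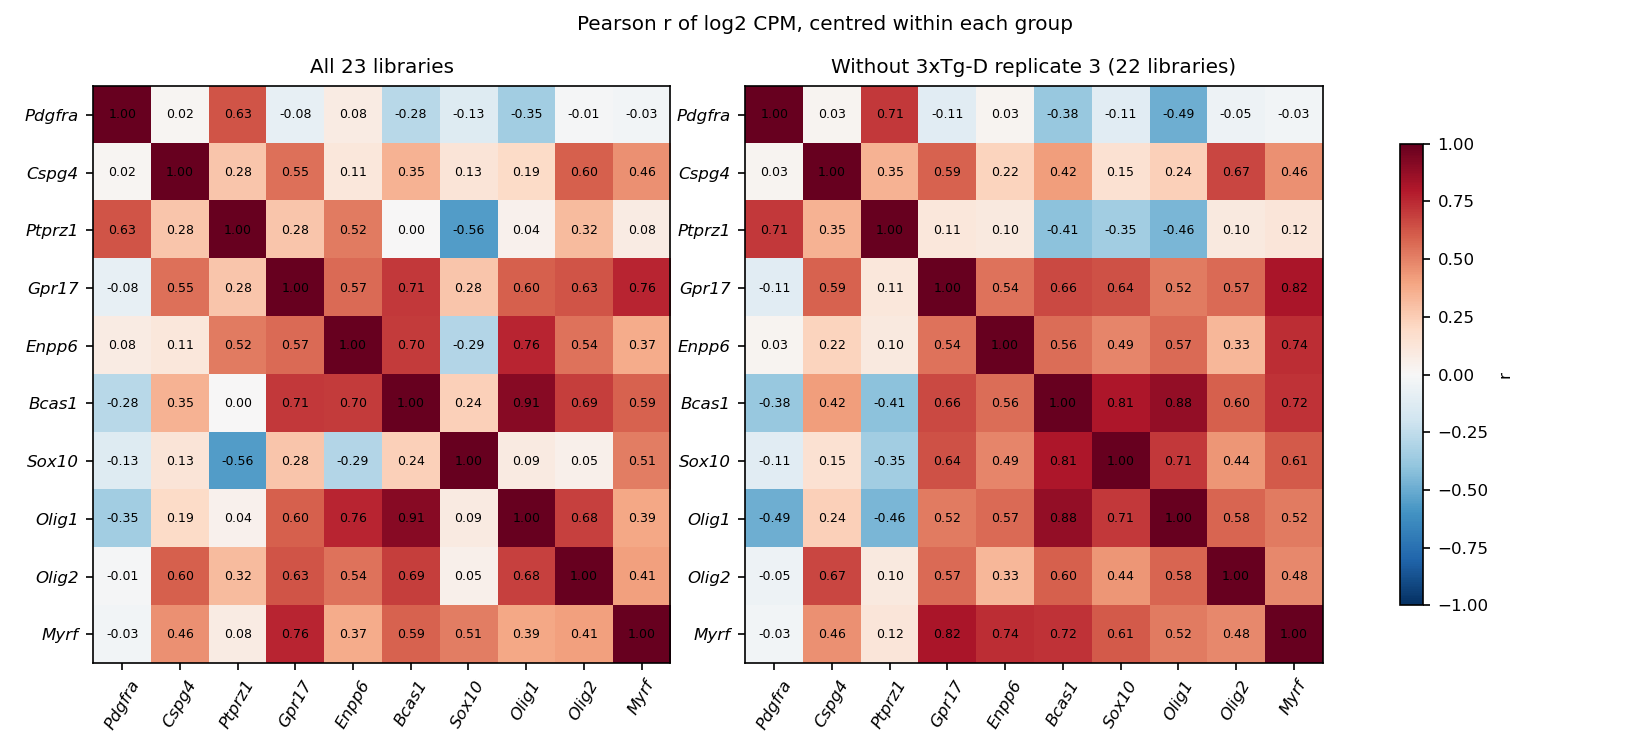
Pearson's r between the 10 genes (log2 CPM, centred within each group), over 23 libraries on the left and over 22 libraries without 3xTg-D replicate 3 on the right, with blue below 0 and red above 0. In the row of Sox10 the values with Bcas1 and Olig1 go from 0.24 and 0.09 to 0.81 and 0.71.

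Genes outside the set lay closer to some members than the members did to each other. These values of r are over all 23 libraries and were not recomputed without 3xTg-D replicate 3. In that library Enpp6 (3.71 CPM) and Ugt8a (28.9 CPM) were at their lowest and Sox10 (45.1 CPM) at its highest, so that 1 point can weigh heavily. Among 16555 genes, the nearest to Bcas1 were Mbp (r = 0.98), Mag (0.95) and Cnp (0.94), all genes of myelin. The nearest to Olig1 were Mag (0.91), Cnp (0.91) and Bcas1 (0.91). The nearest to Enpp6 were Ugt8a (0.95), Pde8a (0.93) and Prr5l (0.90), and those to Myrf were Adipor2 (0.91), Cntn2 (0.90) and Ptpn11 (0.90). Those to Sox10 were Mindy1 (0.86), Mfsd2a (0.84) and Gprc5b (0.83). Ptprz1 was nearest to Lrba (0.92), Btbd7 (0.91) and Mfap3l (0.90), Pdgfra to Gm3325 (0.83), Mef2a (0.83) and Hnrnpa3 (0.82), and Cspg4 to genes that include Arhgef17 (0.85) and Dscaml1 (0.85). Gpr17 was nearest to Aatk (0.86), Adra1d (0.86) and 5031439G07Rik (0.85), and Olig2 to Apbb1ip (0.81), Anks1 (0.80) and Dpp9 (0.79). With the mean of the 20 genes of myelin, r was 0.92 for Bcas1, 0.90 for Olig1 and 0.78 for Enpp6, and -0.27 for Pdgfra. With the mean of 16 other precursor genes, it was 0.81 for Enpp6 and 0.80 for Gpr17, but 0.43 for Cspg4 and 0.09 for Pdgfra. With the mean of 9 microglia markers, it was 0.71 for Bcas1, 0.67 for Enpp6 and 0.62 for Olig1. With the marker means of cells that share a gene, r was 0.10 between Cspg4 and pericytes, 0.17 between Pdgfra and fibroblasts, and -0.06 between Ptprz1 and astrocytes.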

How the data were processed

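Hippocampal RNA of 23 mice was sequenced, and groups were taken from GEO's labels. The authors trimmed reads with Trimmomatic 0.35 and aligned them to GRCm38 with STAR 2.5.1b. The deposited table holds raw counts per gene, not normalised or filtered. The strand setting and any collapsing of molecular identifiers are not given in the sources used here. The 4 rows that name no gene held 24.7% to 30.9% of reads and were left out. All sample columns were used. No pair of libraries was identical.

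Pairs of groups were fitted on their own libraries, and strain, treatment and their interaction on the 15 libraries of 10 months. EdgeR 4.0.16 (filterByExpr, TMM, quasi-likelihood test) in R 4.3.3 was used, with a Benjamini-Hochberg adjusted p under 0.05 over all genes tested as the call. The procedure was tested on simulated data. The standard error is the log2 fold change divided by the square root of F. The p-values measure the spread between the libraries as labelled. Counting error falls with depth, and lowly counted genes such as Enpp6 are the least precise. RPKM used exon lengths of Gencode M21, at hand for 99.7% of genes. Correlations used log2 CPM with a prior count of 2.

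All 10 genes are named in each comparison, with at most the 3 largest called genes of other lists, and the 3 nearest genes by correlation. Opalin and the genes plotted beside it were chosen after their values were seen, as were the correlations, spreads and list counts without 3xTg-D replicate 3. Of 172 listed genes, 1 (Tmem2) was not found by symbol. The 10 genes and the lists were chosen with earlier results of these data known. Alternatives were DESeq2 size factors, no filter, the DESeq2 1.42.0 likelihood ratio test, a length and GC offset, all 15 libraries in one fit, a block for runs of animal numbers, and each library left out. Some items are not reported here.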

Additional observations from a re-analysis of the deposited data

Results flagged for a closer look

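Each of the 10 genes was checked in each group of 4 libraries, which made 50 checks. Of these, 4 found one library far from the other 3, and chance alone flags about 5 in 100. The checks share libraries and are not independent. Ptprz1 was at 421 CPM in WT-8M replicate 1 and at 360 to 365 CPM in the other 3. Enpp6 was at 12.5 CPM in 3xTg-S replicate 1 and at 11 to 11.2 CPM in the others. Sox10 was at 45.1 CPM in 3xTg-D replicate 3 and at 28.4 to 30.8 CPM in the others. Myrf was at 31.2 CPM in 3xTg-8M replicate 4 and at 39.3 to 40.9 CPM in the others.

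For Enpp6 the ratios of group means also had opposite signs between settings. The rule asked only that every library of one group lie on one side of the other group's mean. It was applied to all 10 genes, and how often chance alone meets it was not counted. The log2 ratio of group means between the strains was -0.233 at 8 months and 0.525 at 10 months after the SCDi, with every 3xTg library on one side of the WT mean each time. That difference was not tested, since age, surgery and the SCDi change together. The groups overlapped at 8 months, where the interval of the fitted log2 fold change was -0.56 to 0.11. The log2 ratio of SCDi to vehicle was 0.382 in 3xTg and -0.353 in WT, and the interaction term had an unadjusted p of 0.0374 and an adjusted p of 1 by edgeR. The ratio in 3xTg rested largely on 3xTg-D replicate 3. The fitted log2 fold change there was 0.40 with that library and 0.13 (interval -0.09 to 0.35) without it.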

How the results depend on the processing

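None of the 10 genes was called in any of the 9 comparisons under the size factors of DESeq2, its likelihood ratio test or the length and GC offset, nor when any one library was left out. The replicate block was run for the 8 comparisons at 10 months and the joint fit of 15 libraries for the 5 pairs of groups there, and neither called any of the 10. Without the filter on low counts, edgeR called 1 gene after vehicle between the strains (Olig1, adjusted p = 0.0310), 1 between the strains after the SCDi (Enpp6, adjusted p = 0.0102), 2 for the SCDi in 3xTg (Bcas1, adjusted p = 0.0354, and Olig1, adjusted p = 0.0211) and 1 for strain over both treatments (Gpr17, adjusted p = 0.0486). The cause was not tested. Over 13 alternatives, the log2 fold change of Enpp6 in 3xTg-S against WT-S ran from 0.41 to 0.60 and its adjusted p from 0.0102 to 0.442. Over 14 alternatives, that of Olig1 in 3xTg-D against WT-D ran from -0.36 to -0.16.

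The count of all genes called ran from 227 to 854 at 8 months (399 as reported), from 125 to 792 after vehicle (216), from 87 to 729 after the SCDi (206) and from 0 to 112 for the SCDi in 3xTg (0). It ran from 155 to 1135 for 3xTg-S against WT-D (356), from 804 to 1554 for strain over both treatments (1003), from 0 to 94 for treatment over both strains (0), from 0 to 8 for the interaction (0) and from 0 to 2 for WT-S against WT-D (0), the highest value being without the filter each time. The block for runs of animal numbers is not a pairing that the labels state. Over 21 pairs of libraries of the same run, deviations from group means had a median r of 0.01 (-0.21 to 0.18), and 4 of 15 libraries were closest to one of their own run. Under the replicate block the called genes of myelin in 3xTg-S against WT-S went from 7 to 2, and the adjusted p of Zfp488 there became 0.0527, above the threshold, while Zfp488 stayed called after vehicle (0.0408). In 3xTg-S against WT-D the block took the called genes of myelin from 7 to 10. In the joint fit of 15 libraries 3 genes of myelin were called in 3xTg-S against WT-S, and 3 in 3xTg-S against WT-D.

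Depth limits Enpp6 and Zfp488 most, with as few as 62 and 32 counts in a library. Intervals of the 10 genes leave room for moderate differences, so that a missed threshold does not show equal levels.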

Other observations

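Further genes of the lineage were called by edgeR for strain over both treatments at 10 months, where 6.32% of all genes were called. Among 16 other precursor genes, Susd5 was lower in 3xTg (log2 fold change -0.35, SE 0.10, adjusted p = 0.0330), and 0 were higher. Among 12 other genes of committed and new cells, Rnf122 (0.49, SE 0.11, adjusted p = 0.0104) and Tns3 (0.20, SE 0.06, adjusted p = 0.0318) were higher beside the lower Zfp488. Among 22 ligands, receptors and partners that act on the lineage, Lingo1, a neuronal and glial receptor that restrains myelination, was lower (-0.19, SE 0.04, adjusted p = 0.00295), with 7 WT libraries all above the 8 of 3xTg. Bmpr1a, a receptor for bone morphogenetic proteins, was higher (0.18, SE 0.05, adjusted p = 0.0442). Without 3xTg-D replicate 3, 0 of the 16 precursor genes were called, 1 of the 12 was called higher and 1 lower, and of the 22 signals 1 was called lower and 0 higher.

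At 8 months, Cntn1, an adhesion molecule that binds the Ptprz1 protein, was lower in 3xTg (-0.25, SE 0.06, adjusted p = 0.0424), and it was the only called gene among the lists of precursor, committed, myelin, regulator and signal genes. The Opalin estimate at that age was -0.54 (interval -0.87 to -0.21, adjusted p = 0.0907).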
